A study of Rattus norvegicus with 15 samples.

Results

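The 10 crystallin genes Cryaa, Cryab, Cryba1, Cryba4, Crybb1, Crybb2, Crybb3, Crygb, Crygc and Crygd were followed in retinal RNA of rats kept in darkness or exposed to light. They were taken as every probe set whose array annotation gives exactly 1 of these symbols, which left 1 probe set for each gene, 10 of the 31042 probe sets tested and 10 of the 14218 genes named on the array. Of these, 2 are alpha crystallins, 5 are beta crystallins and 3 are gamma crystallins. All 10 were measured on all 15 arrays, and no filter on low values was used.

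The samples were retinas of adult male Long-Evans rats, a pigmented strain, that had all spent the night in the dark. There were 5 conditions with 3 replicas each. The control was collected at 7 am in darkness (0 ZT dark, where ZT is the time since the usual onset of light). Rats were kept in darkness for 3 or 6 more hours (3 ZT dark and 6 ZT dark) or exposed over the same hours to light of 1000 lux (3 ZT light and 6 ZT light). For 6 ZT light, the sample titles and the methods state an exposure of 6 hours, but the source and treatment labels state 3. The sources do not say how many animals stand behind a replica, so that the scatter among replicas could be purely technical. Unless stated otherwise, all conditions were fitted together. A p-value here thus reflects the residual scatter over all 5 conditions, including arrays outside the pair compared. Each gene has the same standard error in every comparison between a pair of conditions. RNA was hybridised to Affymetrix rat arrays, and the values are log2 expression levels made by the authors with the Robust Multi-array Average (RMA). Values of different probe sets are not on a common scale, so that genes are compared only by their differences.

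Crystallins are the soluble proteins that fill the fibre cells of the lens and give it its refractive power. The alpha crystallins belong to the small heat shock proteins and keep other proteins from aggregating, and Cryab is also made outside the lens. The beta and gamma crystallins share a fold and are structural proteins, the beta crystallins forming oligomers and the gamma crystallins staying monomers that are made mostly in the fibre cells of the lens nucleus. Several crystallins have also been described in the retina, with changes after light or injury. The labelled tissue was checked with markers: the 6 measured rod genes (Sag, Gnat1, Pde6b, Pde6g, Cnga1, Gngt1) had a mean log2 level between 14.95 and 15.21 in all 15 arrays. This lies just under the highest value on any array (15.27 to 15.57), so that it shows rod transcripts to be abundant and little about differences in rod content. Lens fibre genes were read as well. Mip, the water channel of lens fibres, ranged from 6.19 to 11.87, and Lim2, a lens fibre membrane protein, from 6.72 to 12.24. In whole tissue, less lens material in a sample and less RNA per cell cannot be told apart.

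The gene positions differ between the classes. In the RefSeq annotation of the rat build GRCr8, Crygd (chr9:73935798-73937409), Crygc (chr9:73945332-73947367) and Crygb (chr9:73955204-73957264) lie side by side on the same strand of chromosome 9. Crybb3 and Crybb2 are neighbours on chromosome 12, as are Crybb1 and Cryba4, whose annotated spans overlap. Cryba1 lies on chromosome 10, Cryaa on chromosome 20 and Cryab on chromosome 8. The levels of the 3 gamma genes correlated more with each other over the 15 arrays than with those of the other members. From 0 ZT dark to 6 ZT dark, the fitted differences of all 10 members were above 0, as were 52.4% of all probe sets. From 6 ZT dark to 6 ZT light, all 10 were below 0, as were 51.9%. Both steps share the 6 ZT dark arrays, and no member had a limma adjusted p under 0.05. Because of that correlation, the sequences before the start sites of the gamma genes are shown. They are 150 bases from RefSeq (GRCr8), 5′ to 3′ and ending just before the start, with CCCTTTTGTG and TATATA in capitals for the gamma genes. Cryaa is shown for contrast with TGCTGAC in capitals.
Crygb: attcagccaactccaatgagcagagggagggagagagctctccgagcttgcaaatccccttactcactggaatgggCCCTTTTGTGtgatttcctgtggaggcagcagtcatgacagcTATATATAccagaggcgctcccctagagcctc
Crygc: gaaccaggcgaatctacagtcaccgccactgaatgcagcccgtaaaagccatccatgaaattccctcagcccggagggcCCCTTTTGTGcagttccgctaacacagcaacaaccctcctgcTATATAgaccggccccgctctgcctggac
Crygd: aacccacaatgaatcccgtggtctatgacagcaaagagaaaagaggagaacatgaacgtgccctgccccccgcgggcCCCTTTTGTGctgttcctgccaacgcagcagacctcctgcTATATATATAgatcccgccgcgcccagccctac
Cryaa: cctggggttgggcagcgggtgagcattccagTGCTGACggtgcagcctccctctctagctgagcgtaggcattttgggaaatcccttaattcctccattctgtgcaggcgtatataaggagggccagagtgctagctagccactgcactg
These windows are chr9:73957265-73957414 for Crygb, chr9:73947368-73947517 for Crygc and chr9:73937410-73937559 for Crygd, all on the minus strand, and chr20:9784761-9784910 on the plus strand for Cryaa, which overlaps the annotated start of that gene.

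The motif CCCTTTTGTG is the longest run of bases shared by the 3 gamma genes in the 250 bases before their starts, and it was chosen after these sequences had been seen. It starts 74 bases before the start in Crygb, 71 in Crygc and 73 in Crygd. Searched on both strands over this length, it was found in none of the 6 other members with an entry (Cryaa, Cryba1, Cryba4, Crybb1, Crybb2, Crybb3) and in 0.0956% of 33469 rat promoters. It also stands 74 bases before the start of Cryga, a further gamma crystallin of the cluster. TATATA, a form of the TATA box whose matches overlap each other in Crygb and Crygd, was found in the 3 gamma genes and in Cryaa, and in 5.45% of all promoters. TATAAA, another form, was found among the members only in Cryba1, 30 bases before the start, and in 12.9% of all promoters. TGCTGAC, a core of the sites bound by Maf proteins, was found in Cryaa, Cryba1 and Cryba4 and in 3.53% of all promoters. Cryga held TGCTGAC and TATATA as well, with TGCTGAC starting 210 bases and TATATA 32 and 30 bases before the start. Identical bases between 2 gamma genes made up 64.7% to 69.3% of the 150 bases. For the other pairs among the 3 gamma genes, Cryaa, Cryba1 and Cryba4, they made up 55.3% to 60.7%. Because the gamma genes are close copies, their probe sets may share signal. The suffix x of the Crygb probe set marks probes that can match other transcripts. The log2 value of Crygb minus that of Crygc stayed between 0.47 and 0.85 over the 15 arrays, so that these 2 probe sets cannot be read as separate measurements. Crygb minus Crygd ran from −0.82 to 1.75.

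The crystallins differed widely between arrays of the same condition. The standard error of a difference between conditions was 0.41 to 1.12 log2 units for the 10 members, against a median of 0.12 for all probe sets, and only 4 of the 31042 probe sets had a larger one than Crybb1. The range over 15 arrays was 35.4-fold for Crybb1, 37.1-fold for Crygb and 35.9-fold for Crygd, but 7.49-fold for Cryaa and 4.75-fold for Cryab. The upper end of both alpha genes, 15.35 and 15.17, lay close to the highest value of any probe set on an array (15.27 to 15.57), and whether their range was cut off there was not tested.

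Cryaa, the founding alpha crystallin of the lens, had log2 levels of 13.62, 15.21 and 15.05 in replicas 1, 2 and 3 of 0 ZT dark. It had 14.97, 13.90 and 14.43 in 3 ZT dark and 15.11, 12.74 and 14.96 in 3 ZT light. It had 14.79, 15.19 and 15.35 in 6 ZT dark and 14.80, 15.09 and 12.44 in 6 ZT light. The 5 conditions overlapped, and 0 ZT dark replica 1, 3 ZT light replica 2 and 6 ZT light replica 3 lay well below the other replicas of their condition. Cryab, a chaperone of lens, muscle and glia, followed nearly the same pattern (r = 0.977), with a low of 12.93 in 3 ZT light replica 2 and a high of 15.17 in 6 ZT dark replica 2.

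Among the beta crystallins, Crybb1, a subunit made in fibre cells, had levels of 9.97, 12.11 and 12.54 in 0 ZT dark and of 12.03, 9.60 and 11.13 in 3 ZT dark. Its levels were 12.26, 9.82 and 12.23 in 3 ZT light. They were 12.22, 13.95 and 13.35 in 6 ZT dark, against 11.15, 12.62 and 8.80 in 6 ZT light. Its 6 ZT dark and 6 ZT light values overlapped only through replica 1 of the former and replica 2 of the latter. Cryba4, an acidic beta crystallin, had 13.66, 14.46 and 14.51 in 6 ZT dark and 12.25, 13.49 and 10.26 in 6 ZT light. In 0 ZT dark it had 11.32, 13.14 and 13.94. The other 3 beta genes ranged from 11.58 to 15.08 (Cryba1), 11.44 to 14.96 (Crybb2) and 9.65 to 14.44 (Crybb3), and all 5 were lowest in 6 ZT light replica 3.

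The gamma members Crygb, Crygc and Crygd followed another order, which Crygs, a further gamma crystallin, did not share. Crygb had levels of 10.59, 10.58 and 7.40 in 0 ZT dark, 10.62, 10.14 and 9.99 in 3 ZT dark and 12.62, 10.89 and 10.10 in 3 ZT light. It had 12.34, 11.84 and 9.13 in 6 ZT dark and 9.93, 10.58 and 7.65 in 6 ZT light. Replica 3 was the lowest of the 3 replicas in all 5 conditions, and the conditions overlapped. Crygd had 10.52, 11.26 and 7.46 in 0 ZT dark and 10.55, 10.48 and 8.49 in 3 ZT dark. Its levels were 12.51, 11.70 and 8.35 in 3 ZT light. They were 12.26, 12.26 and 8.15 in 6 ZT dark, against 10.04, 10.80 and 7.35 in 6 ZT light. Replica 3 was again the lowest in each condition, and within each replica number both 3 ZT light and 6 ZT dark lay above 0 ZT dark. Crygc ranged from 6.93 in 0 ZT dark replica 3 to 11.88 in 3 ZT light replica 1 and was lowest in replica 3 in 4 of 5 conditions.

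**Figure D1:**
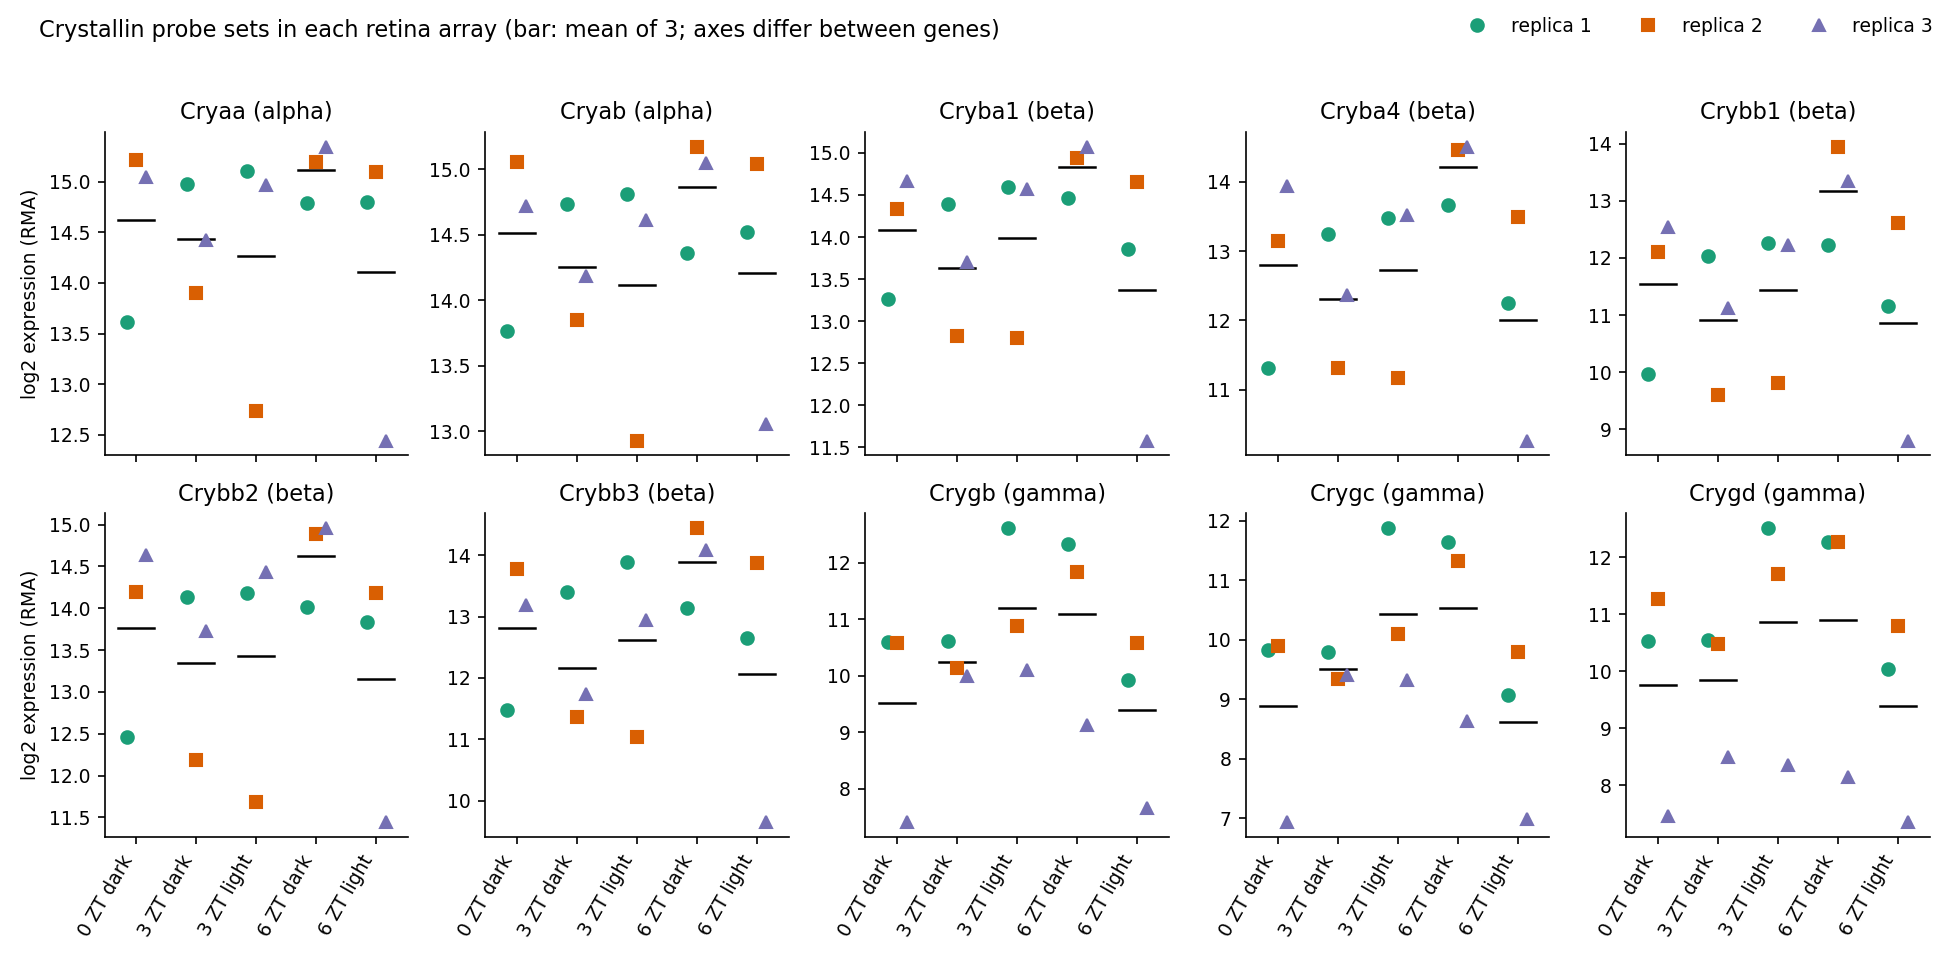
Log2 expression (RMA, vertical axis, scaled for each gene) of the 10 crystallins in the 5 conditions (horizontal axis), with a point for each replica number and a bar for the mean of 3. Replica 3 (triangles) is lowest for Crygb and Crygd in all 5 conditions, while the alpha and beta genes are low in a different replica from one condition to the next.

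The part of each gene's variance that lay between replica numbers was 49.2% to 81.4% for the gamma genes and 0.0872% to 4.4% for the alpha and beta genes, against a median of 63.0% for all probe sets. The array medians also followed the replica number, at 8.28 to 8.32 for replica 1, 8.58 to 8.68 for replica 2 and 8.74 to 8.80 for replica 3. The gamma genes thus ran against the array median, being lowest where it was highest, and whether processing by replica number had a part in this was not tested. For this reason the comparisons below are made within replica numbers.

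Over the 15 arrays, the members split into 2 sets. The alpha and beta class means correlated at r = 0.950 (Spearman's rho 0.925). The gamma mean correlated with the alpha mean at r = 0.232 and with the beta mean at r = 0.278, or at 0.303 and 0.439 once the mean of each replica number was subtracted. For single pairs, r ran from 0.926 to 0.988 between beta genes, from 0.908 to 0.997 between gamma genes and from 0.041 to 0.441 between a beta and a gamma gene. These correlations describe arrays that share conditions and processing, and no p is given.

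**Figure D2:**
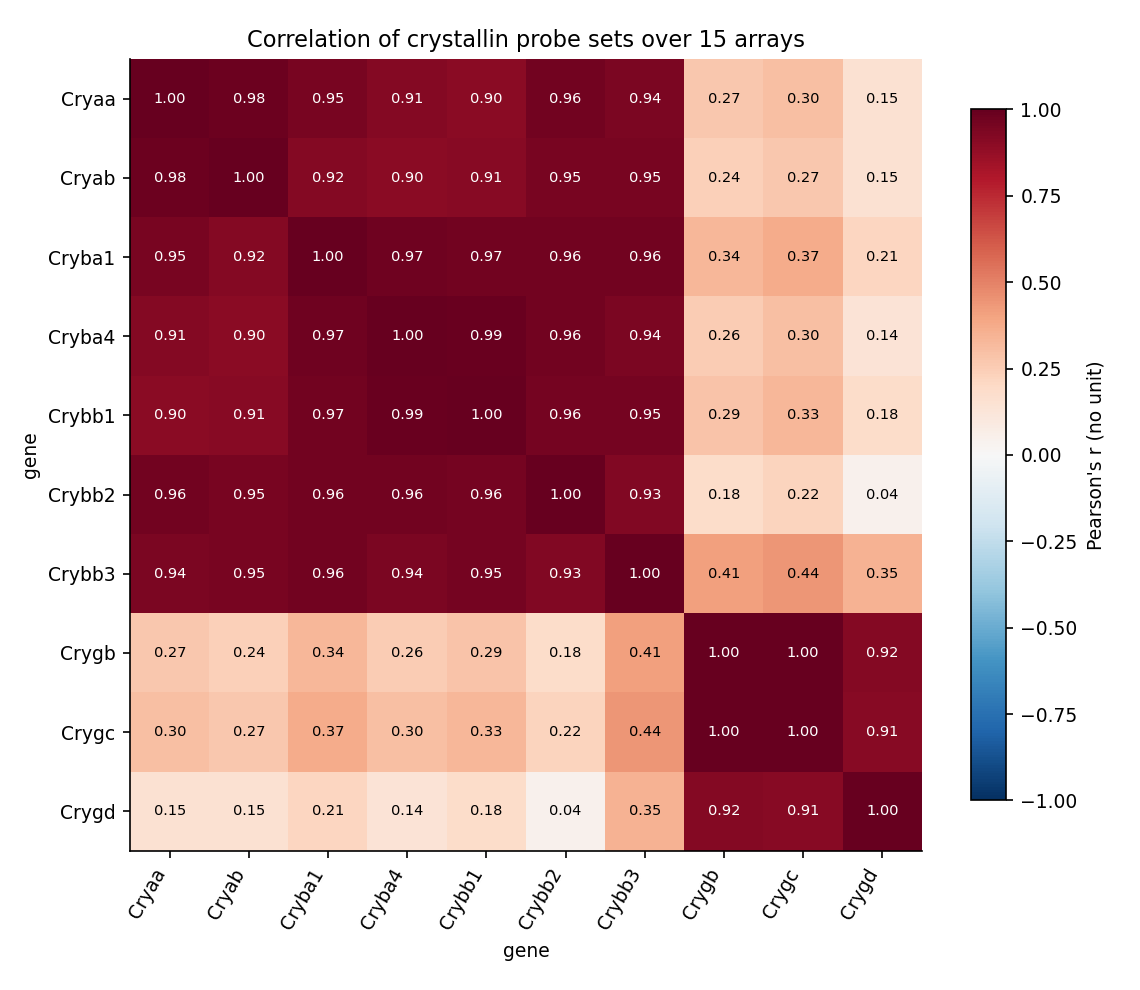
Pearson's r (colour and number) between the log2 values of each pair of crystallin probe sets over the 15 arrays. The 7 alpha and beta genes form a block with r of at least 0.900 and the 3 gamma genes a second block with r of at least 0.908.

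The alpha and beta genes were low together in the same arrays. For both alpha genes and all 5 beta genes, 0 ZT dark replica 1, 3 ZT dark replica 2, 3 ZT light replica 2 and 6 ZT light replica 3 were among the 5 lowest arrays, and 3 ZT dark replica 3 was among them for both alpha and 4 beta genes. These arrays belong to 4 of the 5 conditions, and no array of 6 ZT dark was among them. The 13 measured lens genes other than crystallins had a mean log2 level of 8.39, 8.55, 8.17 and 8.08 in the first 4 of these arrays and of 8.86 in 3 ZT dark replica 3, and of 9.04 to 9.95 in the other 10. Their mean correlated with the beta mean at r = 0.982, with the alpha mean at r = 0.946 and with the gamma mean at r = 0.236. The difference between the 3′ and 5′ control probe sets of Actb, a measure of RNA integrity, reached 2.10 (0 ZT dark replica 1) and 2.40 (3 ZT light replica 2), while the remaining 13 arrays spanned 0.71 to 1.37. For 3 ZT dark replica 2 it was 1.23 and for 6 ZT light replica 3 it was 0.95. The beta mean was 11.70 and 11.30 in the first pair of arrays and 11.46 and 10.35 in the second, so that beta crystallins were low in arrays of both kinds. Over the 15 arrays the Actb difference correlated with the alpha mean at r = −0.565, with the beta mean at −0.508, with the other lens genes at −0.623 and with the gamma mean at 0.382, or at −0.713, −0.616, −0.720 and −0.102 once the mean of each replica number was subtracted. The part of RNA integrity in the crystallin differences was not tested.

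**Figure D3:**
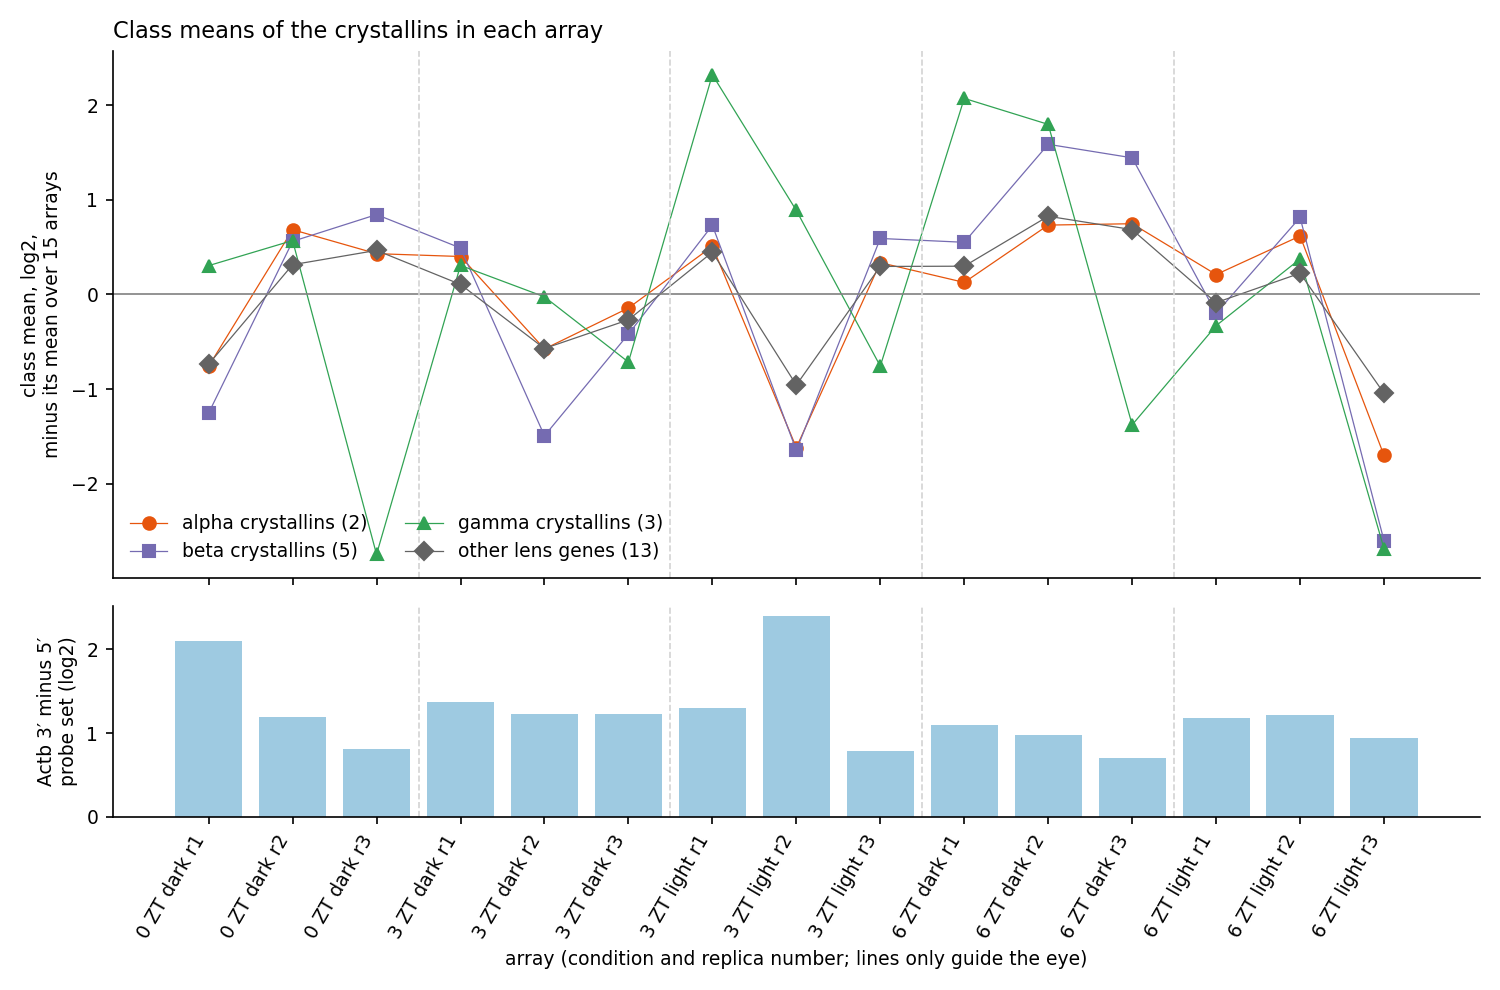
Upper panel: mean log2 level of the alpha, beta and gamma crystallins and of 13 other lens genes in each array, minus the mean over the 15 arrays. Lower panel: Actb 3′ minus 5′ probe set (log2). The alpha, beta and other lens means fall together in 0 ZT dark replica 1, 3 ZT dark replica 2, 3 ZT light replica 2 and 6 ZT light replica 3. The gamma mean is lowest in arrays of replica 3. Within replica number 2, its lowest level is that of 3 ZT dark (9.99), while 3 ZT light (10.90) is exceeded only by 6 ZT dark. Within replica number 1, only 6 ZT light (9.68) lies below 0 ZT dark (10.32).

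At 6 ZT, the crystallins were lower in light than in darkness, but none passed the test. All 10 fitted differences were below 0, as were 51.9% of all probe sets, and 8 of 10 (all beta and gamma genes) were lower in every replica, as were 13.5% of all. The median log2 difference was −0.83 for alpha, −1.83 for beta, −1.72 for gamma and −0.01 for all probe sets. Crygd had −1.50 (SE 0.41, limma adjusted p = 0.508), Crygc −1.92 (SE 0.58, adjusted p = 0.508) and Crygb −1.72 (SE 0.57, adjusted p = 0.519), or 0.354, 0.264 and 0.304 times the level in darkness. No probe set of the array passed an adjusted p of 0.05 in limma (0%), while 1726 were higher (5.56%) and 921 lower at an unadjusted p under 0.05. At an unadjusted p under 0.05, 4 of 10 crystallins (Cryba4 and the 3 gamma genes) were lower, as were 2.97% of all probe sets.

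The classes differed in how the replicas stood behind these medians. For the gamma genes the median differences in replicas 1, 2 and 3 were −2.41, −1.47 and −1.48. For the beta genes they were −0.61, −0.70 and −4.24, and for the alpha genes 0.08, −0.12 and −2.45. Without 6 ZT light replica 3 the fitted beta median was −0.57 and the alpha median 0.01, while the gamma median stayed between −2.14 and −1.48 whichever array was left out. The ratio rule of the study's methods (below 0.7 in all 3 replicas) was here applied to light against darkness. By it, 5 of 10 crystallins were lower (Cryba4, Crybb1, Crygb, Crygc, Crygd), among 12 probe sets of the array, or 0.0387%. These 5 are not separate measurements, as Crygb and Crygc may share signal and Cryba4 and Crybb1 correlated at r = 0.988. The rule also takes no account of scatter, which was larger for the crystallins than for most probe sets. With array quality weights, 9 of 10 crystallins passed as lower, together with 2311 probe sets in all. That fit gave 6 ZT light replica 3, the array with the lowest beta crystallins, a weight of 7.45, the highest of all, and 3 ZT light replica 2 one of 0.16.

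In darkness, all 10 crystallins had a fitted level at 6 ZT above that at 0 ZT, as had 52.4% of all probe sets, and none passed the test. In 9 of 10, all but Cryaa, the level was higher in every replica, against 15.5% of all probe sets. The median log2 difference was 0.42 for alpha, 1.07 for beta and 1.58 for gamma, against 0.01 for all probe sets. This comparison shares the 6 ZT dark arrays with the one just given, so that a high level in them enters both with opposite sign. Crygc had 1.65 (SE 0.58, limma adjusted p = 0.523), Crygd 1.14 (SE 0.41, adjusted p = 0.524) and Crygb 1.58 (SE 0.57, adjusted p = 0.526). Crygb was at 3.36, 2.39 and 3.30 times the control in replicas 1, 2 and 3. Above a ratio of 1.6 in all 3 replicas stood Crybb1, Crygb, Crygc and Crygd, 4 of 20 probe sets, or 0.0644%. Here too, Crygb and Crygc are not separate measurements, and the rule takes no account of scatter. The 3 gamma genes had an unadjusted p under 0.05, as had 3.47% of all probe sets in this direction. Without both arrays with a large Actb difference, 1 of which is 0 ZT dark replica 1, the beta median was 0.23 and the alpha median −0.10.

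In light at 3 ZT against 0 ZT dark, the gamma genes differed from the control in the same direction in all replicas and the other classes did not. None of the 10 passed the adjusted test, which 1 probe set (0.00322%) did. The 3 gamma genes were higher in every replica, as were 11.8% of all probe sets, with a median log2 difference of 1.54. Crygb had 1.68 (SE 0.57, limma adjusted p = 0.576), Crygd 1.11 (SE 0.41, adjusted p = 0.602) and Crygc 1.54 (SE 0.58, adjusted p = 0.612). These differences did not pass the adjusted test, while their unadjusted p was under 0.05, as for 3.25% of all probe sets in this direction. Crygb had 2.02, 0.31 and 2.69 in replicas 1, 2 and 3. The last was taken against its lowest level on any array (7.40, 0 ZT dark replica 3). In darkness at 3 ZT, replica 3 stood above that array by 2.59 for Crygb and 2.47 for Crygc. The median was −0.38 for alpha and −0.10 for beta, or 0.45 and 0.84 without 3 ZT light replica 2 and −0.99 and −1.05 without 0 ZT dark replica 1, with replicas on both sides of 0: the beta median was 2.17 in replica 1, −2.29 in replica 2 and −0.25 in replica 3. The first holds the low control array and the second the low light array, both with a large Actb difference. No crystallin stood above 1.6 or below 0.7 in all 3 replicas, against 0.0580% and 0.0741% of all probe sets. With array quality weights all 10 differences were above 0.

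**Figure D4:**
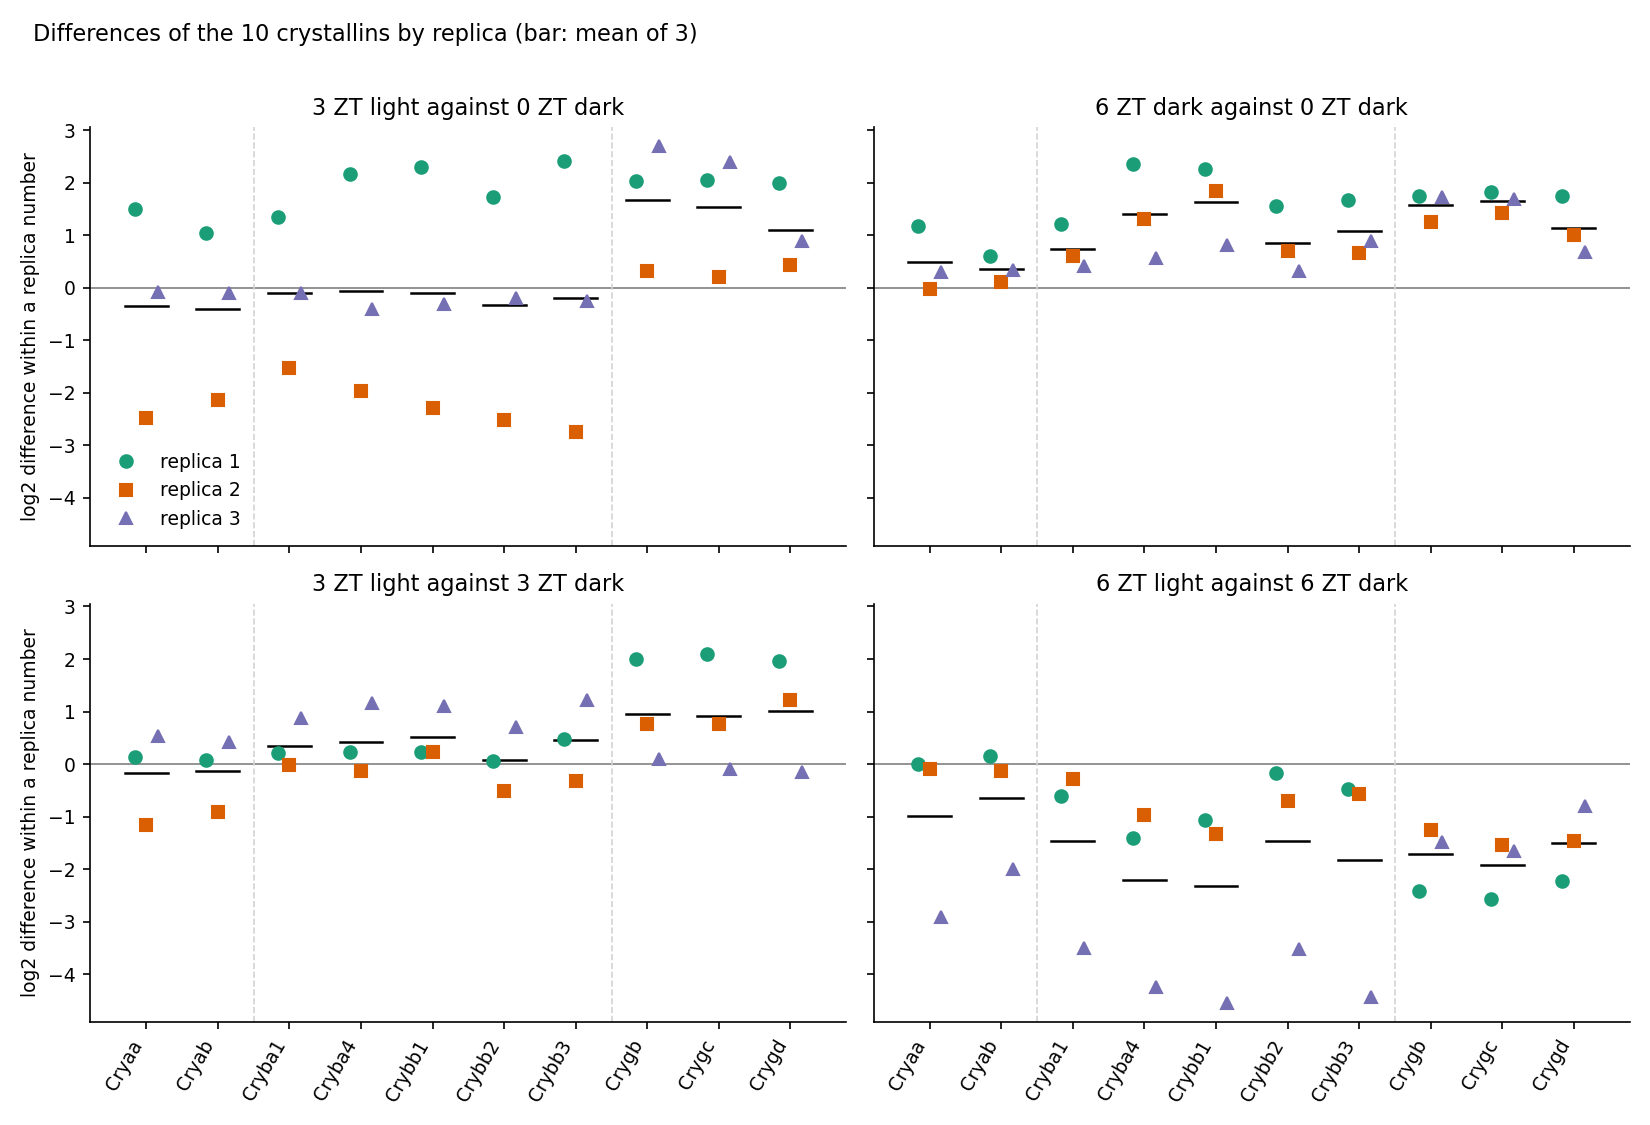
Log2 difference within each replica number (vertical axis) for the 10 crystallins (horizontal axis) in 4 comparisons, with a bar for the mean of 3 and dashed lines between the alpha, beta and gamma classes. At 6 ZT, light minus darkness is below 0 in all 3 replicas for the 8 beta and gamma genes, with replica 3 far below the others for the beta genes. At 3 ZT light against 0 ZT dark, only the 3 gamma genes are above 0 in all 3 replicas.

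Light against darkness at 3 ZT gave smaller differences. The median was −0.15 for alpha, 0.42 for beta and 0.95 for gamma. The gamma median was 1.69 without 3 ZT dark replica 3, 1.44 without 3 ZT light replica 2, 0.56 without 3 ZT dark replica 2, 0.60 without 3 ZT dark replica 1 and 0.62 without 3 ZT light replica 1. Crygd had 1.02 (SE 0.41, limma adjusted p = 0.895), with 1.96, 1.23 and −0.14 in replicas 1, 2 and 3. Crygb had 0.95 (SE 0.57, adjusted p = 0.895) and Crygc 0.92 (SE 0.58, adjusted p = 0.895). Crybb1 and Crygb were higher in every replica, against 7.71% of all probe sets. In replica 3, Crygb had 0.10 and Crygc −0.09. Crygd alone had an unadjusted p under 0.05, as had 1.96% of all probe sets in this direction, and 1 probe set (0.00322%) passed the adjusted test. The light effect at 6 ZT minus that at 3 ZT was below 0 for all 10 members, as it was for 51.2% of all probe sets. Crybb1 and Crygb were higher in light in every replica at 3 ZT and lower in every replica at 6 ZT, against 0.754% of all probe sets. The difference was −2.51 for Crygd (SE 0.58), −2.84 for Crygc (SE 0.82) and −2.67 for Crygb (SE 0.80), each with a limma adjusted p of 0.776. Their unadjusted p was under 0.05, as for 1.81% of all probe sets in this direction, and 8 of 10 members were lower in every replica, as were 15.5% of all.

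The 2 remaining comparisons showed no common direction within replicas. From 0 ZT dark to 3 ZT dark, the median was −0.22 for alpha, −0.49 for beta and 0.62 for gamma. Crygb had 0.73, Crygc 0.62 and Crybb3 −0.65, each with a limma adjusted p of 1.0, and none of the 10 differed in 1 direction in all 3 replicas (7.78% of all probe sets were higher and 8.52% lower in all 3). The gamma median rested on replica 3, at 2.47 against 0.02 and −0.56, and on the low 0 ZT dark value there. From 0 ZT dark to 6 ZT light, all 10 differences were below 0, as were 52.3% of all probe sets, but only Crygd was lower in every replica (9.38% of all). Cryba1 had −0.72 (limma adjusted p = 0.928), Crygd −0.36 (adjusted p = 0.934) and Cryba4 −0.80 (adjusted p = 0.937). Without 3 ZT dark replica 2 and 6 ZT light replica 3, 2 arrays with low alpha and beta crystallins, the difference was 0.31 for Cryba1 and 0.30 for Cryba4, and 3 of 10 stayed below 0. The gamma genes ended within 0.14 to 0.36 log2 units of the control in 6 ZT light.

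Other genes of the lens were read beside the crystallins. Of the 13 measured, 12 had a fitted level in 6 ZT dark above that of 0 ZT dark, 9 of them in every replica, with a median of 0.43, and 12 were lower in light than in darkness at 6 ZT, 9 of them in every replica, with a median of −0.51. None of the 13 passed the adjusted test. Of all probe sets, 52.4% were higher in the first comparison, 15.5% in every replica. In the second, 51.9% were lower, 13.5% in every replica. Bfsp1, a subunit of the beaded filaments of lens fibres, had 10.12, 9.76 and 10.14 in 6 ZT dark against 8.61, 8.75 and 7.99 in 6 ZT light (difference −1.56, SE 0.31, limma adjusted p = 0.44). Lenep, a lens epithelial protein, had −0.46 (adjusted p = 0.519). The exception in both comparisons was Capn3, at −0.29 and 0.59.

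Genes of the pigment epithelium, the layer that recycles the visual pigment behind the photoreceptors, ran the other way. All 8 measured were below the 0 ZT dark level in 6 ZT dark (median −0.46), and all 8 were higher in light than in darkness at 6 ZT (median 0.69, 6 with an unadjusted p under 0.05 and 5 in every replica), with no adjusted p under the threshold. Of the 31042 probe sets tested, 14731 were below in the first comparison and 14907 higher in the second. In the second, 5.56% were higher at an unadjusted limma p under 0.05. The share of all probe sets higher in every replica there was not counted. Lrat, which makes retinyl esters, had 1.43 in the second comparison (SE 0.31, limma adjusted p = 0.44). Their mean log2 level was 10.96 to 11.78 in 6 ZT dark and 11.66 to 12.58 in 6 ZT light. Markers of ganglion cells, the output neurons of the retina, were also lower in 6 ZT light: 7 of 7 measured were below the 6 ZT dark level (median −0.39, 4 in every replica) and 7 of 7 below that of 0 ZT dark (median −0.31, 4 in every replica), with no adjusted p under the threshold. Of all probe sets, 51.9% and 52.3% were below in these 2 comparisons, 13.5% and 9.38% in every replica. The mean log2 level of the ganglion cell markers was 12.04 to 12.42 in 0 ZT dark, 12.08 to 12.37 in 6 ZT dark and 11.20 to 12.26 in 6 ZT light. The part of lens, pigment epithelium or ganglion cell content in the crystallin differences was not tested.

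Of 13 other crystallins and enzyme crystallins listed, 10 were measured. In light against darkness at 6 ZT, 6 of them were lower (51.9% of all probe sets) and 4 higher. Of each, 2 were so in every replica (13.5% of all probe sets were lower in every replica). From 0 ZT dark to 6 ZT dark, 4 were higher (52.4% of all probe sets) and 6 lower. Crygs, the gamma crystallin of the lens cortex, and Cryba2 behaved as the beta genes did: Crygs had 13.95, 14.59 and 14.74 in 6 ZT dark and 12.93, 13.95 and 10.91 in 6 ZT light (difference −1.83, SE 0.86, limma adjusted p = 0.59), and Cryba2 had −1.64 (adjusted p = 0.652). Cryga, which carries the motif of the gamma promoters, had −0.26 in 6 ZT dark against 0 ZT dark (adjusted p = 0.8) and −0.30 in light against darkness at 6 ZT (adjusted p = 0.756). The enzyme crystallins Cryz, Cryl1 and Cryzl1, which are made in many tissues, had differences between −0.31 and 0.18 in these 2 comparisons, and none passed. Among the 6 small heat shock proteins related to the alpha crystallins, all were below 0 in light against darkness at 6 ZT, as were 51.9% of all probe sets. Their median was −0.15, and none passed. Hspb3 had −0.29 in 6 ZT dark against 0 ZT dark (SE 0.09, adjusted p = 0.495). Of the 10 measured transcription factors of the lens, 7 were below 0 at 6 ZT in light against darkness, against 51.9% of all probe sets, with a median of −0.12. Only 1 was lower in every replica, against 13.5% of all probe sets. These factors were led by Hsf4, a heat shock factor needed for lens fibres that also stands in the list of lens genes, at −0.51 (SE 0.21, adjusted p = 0.562).

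The genes most like each class were taken by their correlation with the class mean over 15 arrays, with the mean of each replica number subtracted. For the beta class these were Crygs (r = 0.995), Cryba2 (0.992), Lim2 (0.983), Mip (0.974) and S100a4 (0.973). For the alpha class they were Grifin, a galectin-related protein of lens fibres (0.985), Cryba2 (0.976), Gja3, a lens connexin (0.965), S100a4 (0.954) and Lim2 (0.951). No lens gene led the list of the gamma class, whose closest genes were Bsn, a presynaptic scaffold protein (0.811), the transcription factor Foxc1 (0.799), the secreted peptide gene Prok2 (0.794), the uncharacterised LOC102551831 (0.768) and Lenep (0.758).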

How the data were processed

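The authors summarised 15 Affymetrix RAT230_2 arrays with RMA and deposited log2 values for 31099 probe sets. These were used as deposited. After 57 control probe sets were left out, limma 3.58.1 in R 4.3.3 was fitted to 31042 probe sets with condition and replica number as terms, and p-values were adjusted by Benjamini-Hochberg over all of them (threshold 0.05). The number was kept as a block because deviations of arrays sharing it correlated in all 30 pairs (r from 0.241 to 0.797), against −0.536 to 0.233 in 60 other pairs. Ratios within a replica number followed the study's methods (above 1.6 or below 0.7 in all 3). On simulated data for 6 ZT dark against 0 ZT dark (31042 probe sets), 78 of 100 changes of 1 log2 unit and 99 of 100 of 2 log2 units were recovered, with 9 false among 186 calls. Recovery was not counted separately for probe sets as variable as the crystallins. The crystallins had standard errors of a difference from 0.41 (Crygd) to 1.12 (Crybb1) log2 units, against a median of 0.12 for all probe sets. The recovered numbers therefore do not apply to the crystallins. No pair of arrays was identical. The number of arrays limits the precision.

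The members and gene lists were chosen with earlier results of these data known. Named genes were all members, with full statistics for the 3 with the lowest p in each comparison, up to 4 genes of each list and the 5 genes most like each class; Mip, Lim2, Capn3 and Cryga were added after their values were seen. Symbols came from the array annotation, in which 20832 probe sets carry 1 symbol and 436 several, and 20764 matched RefSeq. Alternatives were no replicate block, array quality weights (statmod 1.5.0), quantile normalization, a filter on dim probe sets, fits of the conditions compared, other ratios and arrays left out.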

Additional observations from a re-analysis of the deposited data

Results flagged for a closer look

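The light effects of 2 crystallins went in opposite directions at 3 and 6 ZT in every replica, above 0 at 3 ZT and below 0 at 6 ZT, as did those of 0.754% of all probe sets. Crybb1 was higher in light than in darkness by 0.23, 0.22 and 1.11 log2 units at 3 ZT and lower at 6 ZT, with differences of −1.07, −1.33 and −4.55. The difference of its light effects was −2.84 (SE 1.58, limma adjusted p = 0.776). Crygb had 1.99, 0.75 and 0.10 at 3 ZT and −2.41, −1.26 and −1.48 at 6 ZT, with a difference of −2.67 (SE 0.80, limma adjusted p = 0.776). Its place here rests on the 0.10 of replica 3, where Crygc had −0.09 and Crygd −0.14. The probe sets of Crygb and Crygc cannot be read as separate measurements. Neither Crybb1 nor Crygb passed the test of the difference. With 3 replicas per condition, single arrays were not tested as outliers.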

How the results depend on the processing

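No crystallin passed the adjusted test in any of the 7 comparisons with the replicate block, without it, after quantile normalization, with dim probe sets left out, with only the conditions compared, or with any array left out. The exception was the fit with array quality weights, where 9 of 10 were lower in light than in darkness at 6 ZT, Crygd at −1.24, Crygc at −1.997 and Crygb at −1.83. The number of all probe sets that passed there was 2311, with 676 for 6 ZT light against 0 ZT dark, 3 for 6 ZT dark against 0 ZT dark and 2 for 3 ZT light against 0 ZT dark. The same weights gave 0 crystallins below the control in 3 ZT light, where 7 were below it in the fit as reported and 6 without both arrays with a large Actb difference, a gamma median of 1.30 in 6 ZT dark against 0 ZT dark and a beta median of 1.28 in light against darkness at 3 ZT.

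Among all probe sets, 3 ZT light against 0 ZT dark gave 1 call, against 2 with dim probe sets left out and 0 with only the conditions compared or with 3 ZT dark replica 2 and 6 ZT light replica 3 left out, a setting chosen after seeing the data. Light against darkness at 3 ZT gave 1 call, against 0 without the replicate block, after quantile normalization, with only the conditions compared and without those 2 arrays. Without both arrays with a large Actb difference, 3 probe sets passed in 6 ZT light against 0 ZT dark, and the class medians were −0.10 (alpha) and 0.23 (beta) in 6 ZT dark against 0 ZT dark and 1.23 (beta) in light against darkness at 3 ZT. Without 3 ZT dark replica 2 and 6 ZT light replica 3, 3 crystallins were below 0 ZT dark in 6 ZT light, where Cryba1 turned to 0.31 and Cryba4 to 0.30, and 4 were higher in light than in darkness at 3 ZT. Ratios above 1.6 in 6 ZT dark held for 4 crystallins, against 2 without the replicate block and 2 above a ratio of 2, and ratios below 0.7 in light against darkness at 6 ZT held for 5, against 4 without the block and 3 below 0.5. The block changed no other count of crystallins by over 1.5 times.

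With each array left out in turn, class medians in 6 ZT dark against 0 ZT dark ran from −0.19 to 0.79 (alpha), 0.14 to 1.66 (beta) and 1.15 to 1.92 (gamma), in light against darkness at 3 ZT from −0.57 to 0.68 (alpha), −0.17 to 1.33 (beta) and 0.56 to 1.69 (gamma), and in 3 ZT light against 0 ZT dark from −0.99 to 0.45 (alpha), −1.05 to 0.84 (beta) and 1.16 to 2.06 (gamma). Crystallins below 0 ZT dark numbered 1 to 10 in 3 ZT dark, 0 to 7 in 3 ZT light and 2 to 10 in 6 ZT light, and 3 to 10 were higher in light than in darkness at 3 ZT. Differences turned sign for Crygb (−0.013 to 1.12) and Crygc (−0.15 to 1.04) in 3 ZT dark and for Cryba1 (−1.57 to 0.36) and Cryba4 (−1.78 to 0.36) in 6 ZT light. All probe sets passing numbered 0 to 1 in 3 ZT light and 0 to 1 in 6 ZT light against 0 ZT dark, 0 to 0 in light against darkness at 3 ZT and 0 to 3 at 6 ZT. By ratios in the 2 remaining pairs, 0 to 3 crystallins stood above 1.6 in 3 ZT light against 0 ZT dark, 0 to 3 in light against darkness at 3 ZT, and 0 to 7 below 0.7 in 3 ZT dark against 0 ZT dark. Each gene has 1 probe set, so that taking the brightest could not be run as an alternative. The alpha genes lie near the top of the scale, and a limit from this was not tested.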
